A study of Rattus norvegicus with 6 samples.

Results

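Axon guidance genes were examined in the islets of rats, the hormone-secreting part of the pancreas, at 2 ages. The members were all gene rows whose symbol belongs to the ephrins (Efna, Efnb), the Eph receptors (Epha, Ephb), the semaphorins of classes 3 to 7, the plexins, the neuropilins Nrp1 and Nrp2, the Slits and Robos, or the netrins with their receptors Unc5a to Unc5d and Dcc. They numbered 62 of 17055 gene rows. Symbols alone decided which rows were members, but the families were chosen with earlier results of these data known. In the GRCr8 gene table of RefSeq, 71 protein-coding genes match the same rule, and the 9 with no row under their symbol (Efna3, Epha6, Epha8, Ephb4, Plxna1, Plxna4, Plxnb1, Plxnc1 and Sema6a) were not analysed here.

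All 6 libraries came from islets of control Sprague-Dawley rats. The P10 group held 3 libraries from 10-day-old pups, labelled replicates 1, 3 and 4, and the adult group 3 libraries from 3-month-old males, labelled replicates 1, 2 and 3. The labels give no sex for the pups and do not say whether a library pools several animals. Values are listed below in that order of replicates.

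In the nervous system these families steer growing axons by attraction and repulsion at the cell surface, and most of them also act outside it. Ephrins and Eph receptors are both bound to the membrane and signal in both directions between touching cells, and such contacts between beta cells, through ephrin-A5 and EphA5, are known to adjust insulin secretion. Secreted class 3 semaphorins bind neuropilins, which pair with plexins, while membrane semaphorins bind plexins directly. Slits are secreted ligands of the Robo receptors, which in islets help to keep endocrine cells in their places. The secreted netrins signal through Dcc and the Unc5 receptors.

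Adult islets had higher levels of the receptors Robo1, Robo2 and Epha5 and of the membrane semaphorin Sema4a. They had lower levels of Slit2 and Slit3, of the ephrins Efna1, Efna4 and Efnb1, of the Eph receptors Epha2, Epha3 and Ephb3, of the semaphorins Sema3b, Sema3f and Sema4c, and of the semaphorin receptors Nrp1 and Plxnd1. Of the 62 members 59 had a count in some library and 44 passed the filter on low counts. Of these 44, 4 were higher and 13 lower in adults by the quasi-likelihood test of edgeR, called where the adjusted p, the false discovery rate (FDR), was under 0.05, and 27 were not called. That is 9.09% higher and 29.5% lower, against 12.5% higher and 13.8% lower (26.3% in either direction) among all 10124 genes tested. Of the 44 members, 9 passed the filter through the P10 libraries alone and 3 through the adult libraries alone, so these shares are a description of the members that passed. Among the members called, Efna4, Epha3, Sema3b, Sema3f and Slit2 passed through P10 alone and Epha5 through adults alone, in each case the age where they were higher. Normalised levels did not overlap between the ages in 47.7% of the members tested, near the 42.3% of all genes tested. All 17 members called were among those without overlap, an outcome that the call itself favours.

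**Figure D1:**
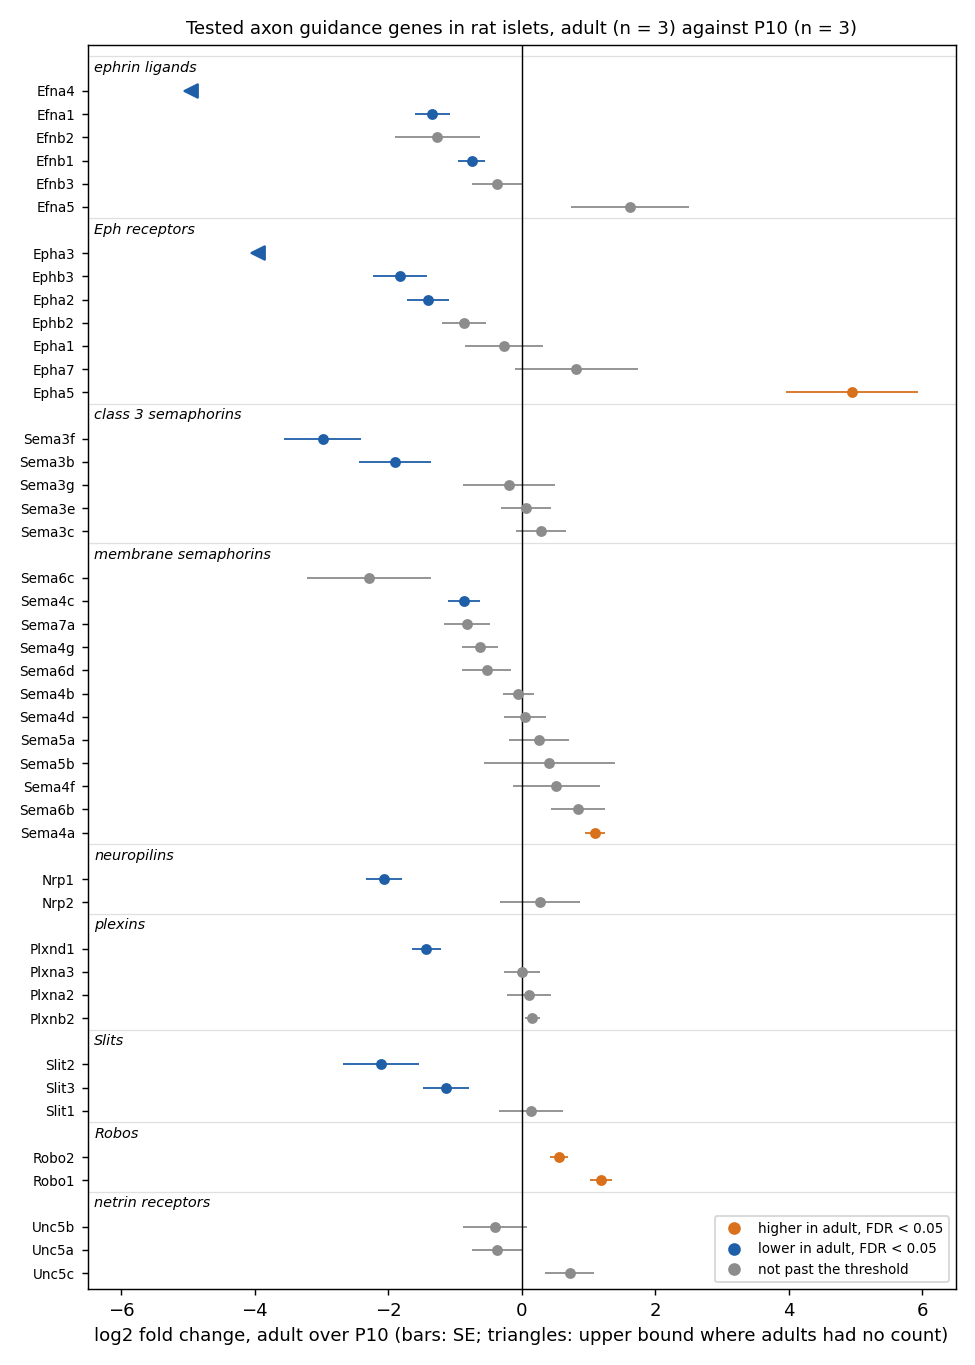
Log2 fold change of normalised counts, adult over P10, for the 44 members tested, grouped by role. Points are fitted values with standard errors from edgeR, and triangles mark Efna4 and Epha3, which had no adult count, at the bound that 3 counts over the adult group allow. The 4 members called higher are orange, the 13 called lower blue and the 27 others grey.

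Reads assigned to genes ran from 3307415 to 6477825 per library, and 3 counts corresponded to between 0.407 and 1.10 CPM, the counts of a gene scaled to a common library size. The insulin genes Ins1 and Ins2 held 31.4% ± 2.71 (SD, n = 3) of all gene counts in pups and 48.7% ± 3.11 (SD, n = 3) in adults, and the scaling bears on directions. With library totals alone the median gene tested had a log2 fold change of -0.52, against -0.03 with the factors used here. The members then split into 3 higher and 19 lower, and all 10124 genes tested into 343 higher and 3612 lower. The larger number of lower members in that setting is thus part of a shift over all genes. Every change below is relative to the median gene. On log CPM over tested genes, P10 replicate 1 correlated less with P10 replicates 3 and 4 (Pearson r across genes 0.917 and 0.922) than these did with each other (0.964).

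Markers of the cell types that islet preparations can hold differed between the same libraries. Beta-cell markers were higher (7 of 9 called, led by Slc2a2 and Ins2, summed 228005 to 297207 CPM at P10 and 538894 to 672095 CPM in adults). Those of fibroblasts and stellate cells were lower in 8 of 9 tested, from sums of 2849 to 3700 CPM down to 611 to 843 CPM, led by Col1a1 (14.97-fold) and Col3a1 (11.2-fold). Pericyte and smooth muscle markers were lower in 7 of 8 (416 to 497 and 99.5 to 132 CPM), with Acta2 12.5-fold and Tagln 13.0-fold lower, and duct markers in 4 of 5 (1101 to 1122 and 152 to 206 CPM), with Spp1 49.3-fold and Krt19 13.98-fold lower. Of 10 endothelial markers 2 were lower, Emcn 2.402-fold and Tie1 1.64-fold, with sums of 159 to 221 and 111 to 163 CPM that overlapped. Of 3 tested markers of Schwann cells and glia 2 were lower, S100b and Erbb3 (sums of 36.4 to 51.8 and 10.0 to 18.3 CPM, Cdh19 at 0 in adults). No neuron marker of 5 tested was called (sums of 121 to 165 and 140 to 182 CPM). In alpha, delta and PP cells Gcg was 1.71-fold lower and Ppy 2.41-fold higher of 6, with sums of 27411 to 30045 and 18992 to 22862 CPM. Acinar markers went both ways (3 higher, led by Pnlip and Cela1, and 3 lower, led by Pnliprp1 and Cpa1, of 8), with sums of 2633 to 3927 CPM at P10 and of 998, 1130 and 3970 CPM in adults, where replicate 3 stood apart. Amy2a3 and Ctrb1 were called although the ages overlapped, and 1 of 8 leukocyte markers, Lyz2, was lower. In such bulk samples fewer cells of a type and less RNA per cell cannot be told apart, and the part of these markers in the results below was not tested.

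**Figure D2:**
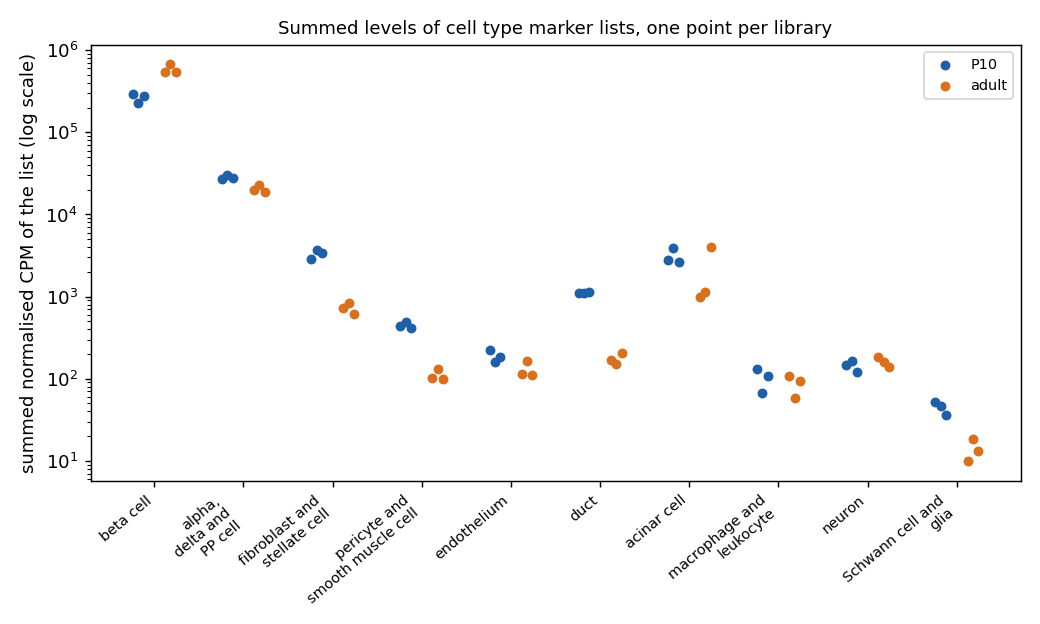
Summed normalised CPM of each cell type marker list (log axis), with 1 point per library, P10 in blue and adult in orange. The sums of beta cells, of alpha, delta and PP cells, and of fibroblasts, pericytes, ducts and Schwann cells do not overlap between the ages. The endothelial sums (159 to 221 and 111 to 163 CPM) and the neuron, acinar and leukocyte sums do.

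The region upstream of the annotated start is shown for the 2 members called higher and the 2 called lower with the smallest p among the 13 called members that have a single start in RefSeq's promoter table (GRCr8). These are Sema4a and Epha5, which rose, and Nrp1 and Efna4, which fell. Each run is the 250 bases before the start, read 5′ to 3′ on the gene's strand, with matches to the GC box (GGGCGG), the TATA box (TATAAA) and the E-box (CACGTG) on either strand in capitals.
Sema4a, chr2:176212259-176212508, minus strand: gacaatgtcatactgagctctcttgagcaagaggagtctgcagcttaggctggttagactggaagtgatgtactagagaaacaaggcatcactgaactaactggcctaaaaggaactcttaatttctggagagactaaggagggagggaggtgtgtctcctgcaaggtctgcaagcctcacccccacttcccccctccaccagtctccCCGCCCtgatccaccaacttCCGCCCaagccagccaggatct
Epha5, chr14:24007872-24008121, plus strand: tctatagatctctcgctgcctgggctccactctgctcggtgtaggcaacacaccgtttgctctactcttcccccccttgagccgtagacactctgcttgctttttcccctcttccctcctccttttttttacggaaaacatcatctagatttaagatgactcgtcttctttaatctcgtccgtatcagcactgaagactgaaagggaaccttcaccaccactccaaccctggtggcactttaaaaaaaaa
Nrp1, chr19:73256307-73256556, plus strand: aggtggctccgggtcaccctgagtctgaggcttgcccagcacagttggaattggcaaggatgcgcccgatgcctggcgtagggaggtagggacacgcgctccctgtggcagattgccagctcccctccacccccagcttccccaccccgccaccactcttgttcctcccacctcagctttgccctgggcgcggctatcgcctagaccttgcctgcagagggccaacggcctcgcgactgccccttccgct
Efna4, chr2:177050714-177050963, minus strand: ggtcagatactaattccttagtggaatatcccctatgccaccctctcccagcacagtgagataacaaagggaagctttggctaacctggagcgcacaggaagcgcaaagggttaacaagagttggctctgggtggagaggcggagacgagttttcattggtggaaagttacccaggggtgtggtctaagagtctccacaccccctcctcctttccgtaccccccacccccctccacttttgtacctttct
The Sema4a window held 2 GC boxes and the other windows none of the 3 motifs. Of 33469 windows of this length in the table, 30.5% hold a GC box, 12.9% a TATA box and 5.59% an E-box. Of 50 windows of 49 members, 24 hold a GC box, 0 a TATA box and 3 an E-box. G and C made up 66.4% of the Nrp1 window, 53.2% of the Sema4a and Efna4 windows and 47.6% of the Epha5 window, against a median of 51.2% over the table. The start that islet cells use was not measured by these counts.

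Slits and Robos moved in opposite directions, with both detected Robo receptors higher in adults and 2 of 3 Slit ligands lower. Robo1, the receptor that binds Slits through its outer immunoglobulin domains, had 56.8, 52.7 and 67.0 CPM at P10 and 146, 107 and 147 CPM in adults. Every adult library lay above every P10 library, and the rise was 2.28-fold (log2 fold change 1.19 ± 0.16 SE, edgeR FDR = 6.01e-05). Robo2, its close relative, had 64.1, 75.5 and 75.5 CPM at P10 and 105, 113 and 99.9 CPM in adults. It rose 1.47-fold without overlap (log2 fold change 0.56 ± 0.14 SE, edgeR FDR = 0.00836). The Robo2 call was lost with library totals alone (log2 fold change 0.059, edgeR FDR = 0.797) and in the test against 1.5-fold (edgeR FDR = 0.783), and it held in 11 of 14 alternatives (lowest edgeR FDR 0.00316), whereas Robo1 kept its call under each of the 14 alternatives run. The rises of Robo1 and Robo2 stand beside the higher sums of beta-cell markers given above. Robo3 and Robo4 were listed at 0 in every library. So was Col1a2, while the other type I collagen gene, Col1a1, averaged 1737 CPM at P10, and a row at 0 in all libraries is not read here as an absent transcript.

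Slit2, a secreted ligand of both Robos, had 6.10, 8.32 and 10.4 CPM at P10 against 2.77, 1.83 and 1.29 CPM in adults. It fell 4.30-fold without overlap (log2 fold change -2.10 ± 0.57 SE, edgeR FDR = 0.0120), a call lost without P10 replicate 4 (edgeR FDR = 0.0704; 0.00179 to 0.188 over the alternatives). Slit3 had 11.8, 24.1 and 24.8 CPM at P10 and 7.61, 11.4 and 8.63 CPM in adults. P10 replicate 1 lay close to the highest adult library, and the fall was 2.19-fold (log2 fold change -1.13 ± 0.34 SE, edgeR FDR = 0.0234). Leaving out P10 replicate 3, P10 replicate 4, adult replicate 1 or adult replicate 3 ended the call (highest edgeR FDR of these 0.112; 0.00134 to 0.149 over the alternatives). Slit1, the third ligand, did not pass. Its P10 libraries spread from 3.86 to 20.3 CPM, with replicate 1 the highest, around the adult range of 10.0 to 13.6 CPM (edgeR FDR = 0.867), and its sign depended on the scaling and on single libraries. The falls of Slit2 and Slit3 stand beside the lower sums of fibroblast, pericyte, duct and Schwann cell markers given above. The sum of alpha, delta and PP cell markers was lower as well, and the part of any of these cell types was not tested.

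**Figure D3:**
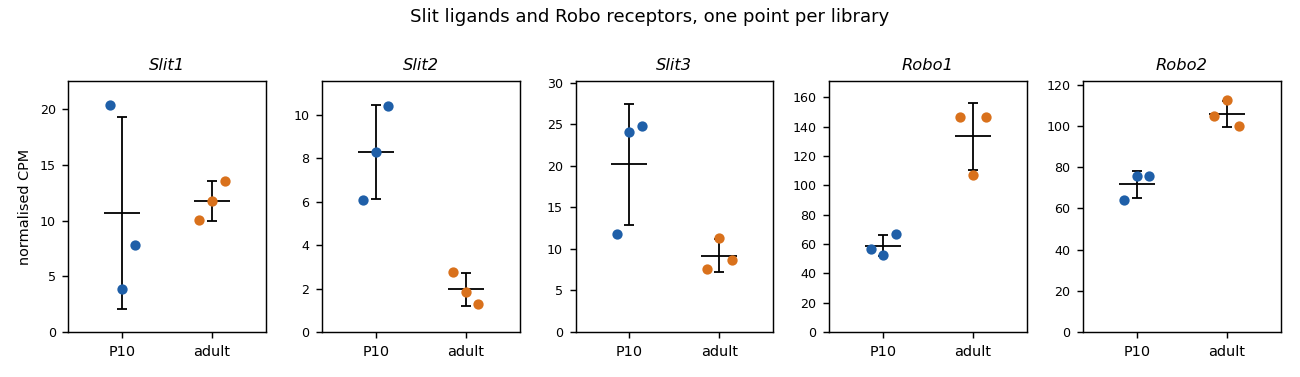
Normalised CPM of the 3 Slits and of Robo1 and Robo2, 1 point per library, with black bars for the mean and SD of each age (n = 3). Adult libraries lie above all P10 libraries for both Robos and below them for Slit2 and Slit3, whereas the Slit1 values overlap.

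Of the 7 ephrin ligands, 3 fell in adults, 3 did not pass and 1, Efna2, was below the filter. Efna1, a membrane-anchored ligand of EphA receptors, had 27.4, 29.4 and 30.3 CPM at P10 and 9.34, 15.4 and 10.1 CPM in adults. The ages were well apart, with a 2.52-fold fall (log2 fold change -1.34 ± 0.26 SE, edgeR FDR = 0.00146). Efna4, another A-type ligand, whose gene lies near that of Efna1, had 46, 80 and 27 counts at P10 and 0 in each adult library. With 3 counts over the adult group as the limit, the fall was at least 31.0-fold (edgeR FDR = 0.000178), and it was at least 15.7-fold without adult replicate 3, the deepest adult library. Efnb1, a transmembrane ligand of EphB receptors, went from 51.1, 38.5 and 45.2 CPM to 27.0, 22.7 and 30.1 CPM. Its 1.68-fold fall (log2 fold change -0.75 ± 0.20 SE, edgeR FDR = 0.0120) was lost without adult replicate 2 (edgeR FDR = 0.0594; 0.000245 to 0.369 over the alternatives).

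Efna5 was the 1 ephrin with higher values in adults, though the difference did not pass. It had 0, 11 and 18 counts at P10 and 16, 15 and 35 in adults, or 0, 1.63 and 4.37 against 5.53, 5.50 and 6.43 CPM. The ages did not overlap, but the P10 libraries were far apart and the log2 fold change of 1.63 ± 0.88 SE had an edgeR FDR of 0.194. Efnb2, the B-type ligand known from arteries, had a log2 fold change of -1.26 ± 0.64 SE (edgeR FDR = 0.161) and Efnb3 one of -0.37 ± 0.38 SE (edgeR FDR = 0.518). Efna2 had 16, 2 and 3 counts at P10, most of them in replicate 1, and 2, 0 and 0 in adults.

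Among the 11 Eph receptors measured, Epha5 rose and Epha2, Epha3 and Ephb3 fell. Epha5, the partner of ephrin-A5 in contacts between beta cells, had 0, 1 and 2 counts at P10 and 16, 27 and 18 in adults. The groups were far apart, and normalised counts were 33.5-fold higher in adults with a 95% counting interval of 10.9 to 167 (edgeR FDR = 0.00163). The ratio was 19.9 (6.51 to 99.3) without P10 replicate 1 and 77.7 (13.4 to 3120) without P10 replicate 4, which left 1 count at P10. Epha3 had 47, 14 and 15 counts at P10 and 0 in every adult library, and so was at least 15.4-fold lower (edgeR FDR = 0.00235). The bound was 9.86-fold without P10 replicate 1 and 7.81-fold without adult replicate 3. Without P10 replicate 1, which held most of its reads, Epha3 was under the filter and had no test. It had none with the stricter filter either. Epha2, a receptor common in epithelia, fell 2.64-fold, from 20.1, 34.3 and 19.9 to 6.92, 10.996 and 10.1 CPM (log2 fold change -1.40 ± 0.31 SE, edgeR FDR = 0.00361). Markers of ducts, an epithelium, and of fibroblasts were lower in the same adult libraries, and those of beta cells were higher.

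Epha4, a receptor for ligands of both types, was under the filter, with 7, 16 and 9 counts at P10 and 1, 1 and 0 in adults. Normalised counts were 9.72-fold higher at P10 with a 95% counting interval of 2.48 to 83.7, which covers counting error only, or 4.93-fold (1.26 to 42.5) without adult replicate 3 and 14.6-fold (2.45 to 596) without adult replicate 2. Among the B-type receptors Ephb3 fell 3.54-fold, from 13.4, 15.3 and 11.7 to 3.46, 4.76 and 3.30 CPM (log2 fold change -1.82 ± 0.40 SE, edgeR FDR = 0.00333). Ephb2, at 16.95, 17.5 and 25.5 CPM against 11.8, 14.7 and 7.16 CPM, did not overlap but missed the threshold (log2 fold change -0.86 ± 0.33 SE, edgeR FDR = 0.0640) except with library totals alone (edgeR FDR = 0.00309, with the other alternatives up to 0.368). Epha1 and Epha7 did not pass (edgeR FDR = 0.781 and 0.562). Ephb1, Ephb6 and Epha10 were under the filter. Ephb6, a receptor without kinase activity, was spread widely at P10, with 4, 69 and 33 counts, and had 7, 6 and 13 in adults. Ephb1 had 32, 4 and 3 counts at P10, most of them in replicate 1, and 0, 1 and 4 in adults, and Epha10 had 3 counts, all in P10 replicate 3.

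**Figure D4:**
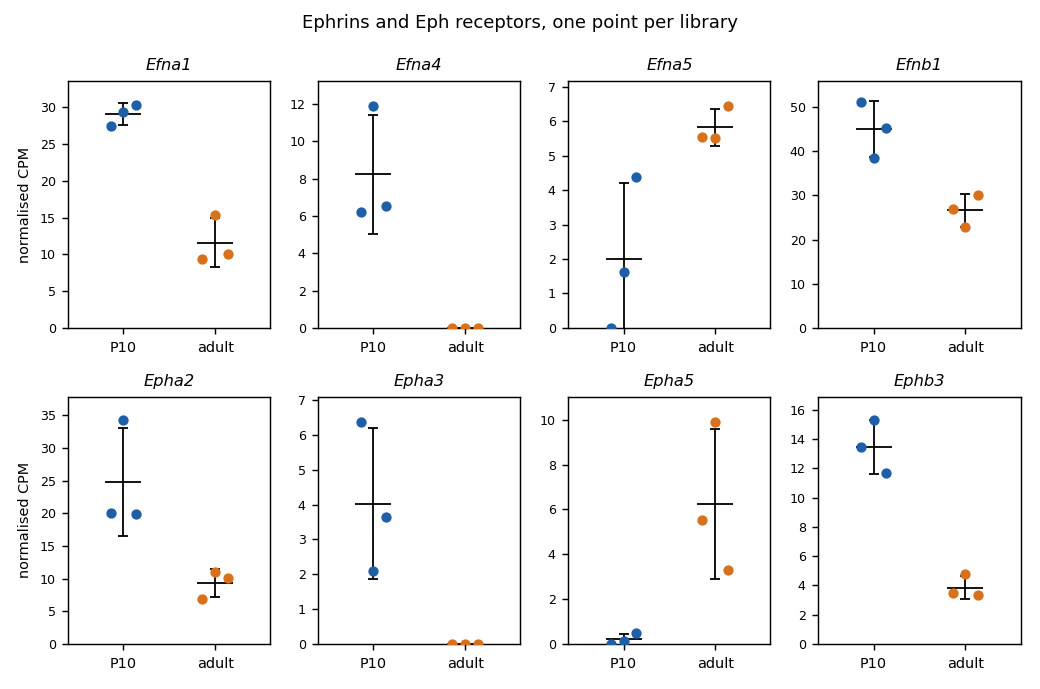
Normalised CPM of 4 ephrins (top) and 4 Eph receptors (bottom), 1 point per library, with black bars for the mean and SD of each age (n = 3). Efna4 and Epha3 lie at 0 in all adult libraries, and Epha5 is under 0.5 CPM in all P10 libraries and between 3.30 and 9.90 CPM in adults.

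Of the 7 secreted class 3 semaphorins, Sema3b and Sema3f fell, 3 did not pass and 2 were under the filter. Sema3f, a repellent that acts mainly through Nrp2, had 28.9, 8.02 and 14.1 CPM at P10 and 3.80, 2.20 and 0.918 CPM in adults. Replicate 1 was the highest at P10, yet all P10 libraries lay above the adult ones. The fall was 7.89-fold (log2 fold change -2.98 ± 0.58 SE, edgeR FDR = 0.00133) and had a log2 fold change of -2.32 without P10 replicate 1. Sema3b, another secreted repellent whose gene lies near Sema3f, had 12.3, 7.28 and 7.28 CPM at P10 and 3.80, 1.47 and 2.02 CPM in adults, a 3.72-fold fall (log2 fold change -1.90 ± 0.54 SE, edgeR FDR = 0.0165). Leaving out P10 replicate 1, adult replicate 2 or adult replicate 3 ended that call (highest edgeR FDR of these 0.0629; 0.00244 to 0.155 over the alternatives).

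Sema3c, which also acts on vessels and epithelia, had 13.3, 10.996 and 9.71 CPM at P10 and 12.8, 7.33 and 20.7 CPM in adults, and the ages overlapped (edgeR FDR = 0.613). Sema3e, the ligand of Plxnd1, ranged from 6.69 to 13.1 CPM at P10 and from 9.34 to 12.8 CPM in adults (edgeR FDR = 0.915). Sema3a, the founding class 3 semaphorin and a ligand of Nrp1, had 0, 0 and 12 counts at P10, all in replicate 4, and 1, 2 and 0 in adults, under the filter. The ratio of normalised counts, 2.43 higher at P10, had a 95% counting interval of 0.656 to 13.4 that includes no difference. The direction rested on P10 replicate 4, without which 0 counts at P10 stood against 3 in adults. The interval lay above 1 without P10 replicate 1 (1.10 to 22.5) or P10 replicate 3 (1.04 to 21.3) and included 1 with each adult library left out in turn. Sema3g, the class 3 member known from vessels, had 17, 17 and 14 counts at P10 and 11, 5 and 9 in adults (edgeR FDR = 0.875). Sema3d had 7 counts at P10 and 2 in adults.

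Both types of semaphorin receptor had 1 member that fell. Nrp1, a co-receptor for class 3 semaphorins and for vascular endothelial growth factor, had 30.5, 39.4 and 37.4 CPM at P10 and 11.8, 7.70 and 6.61 CPM in adults. It fell 4.18-fold with the ages far apart (log2 fold change -2.06 ± 0.27 SE, edgeR FDR = 4.80e-05). Nrp2 had 1.22, 7.43 and 10.7 CPM at P10 and 7.95, 6.60 and 8.26 CPM in adults. P10 replicate 1 alone was low, the ages overlapped (edgeR FDR = 0.778), and the sign turned without it (log2 fold change -0.22). Plxnd1, the plexin known from developing vessels, fell 2.69-fold, from 95.3, 74.4 and 62.6 to 21.1, 26.4 and 37.6 CPM (log2 fold change -1.43 ± 0.22 SE, edgeR FDR = 0.000206).

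Nrp1 and Plxnd1 kept their calls under each of the 14 alternatives. Both genes are well known from endothelium. Of its 10 markers 2 were called, both lower, and the list had a median log2 fold change of -0.67, against -0.03 over all genes tested. The 20% called is under the 26.3% of all genes tested, and the endothelial sums overlapped between the ages. The fibroblast, pericyte, duct and Schwann cell sums were lower in the same adult libraries, as was that of alpha, delta and PP cells. The part of any cell type in the falls of Nrp1 and Plxnd1 was not tested.

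The remaining plexins tested did not pass. Plxnb2, a receptor of class 4 semaphorins, had 345, 335 and 378 CPM at P10 and 425, 367 and 390 CPM in adults (log2 fold change 0.16 ± 0.12 SE, edgeR FDR = 0.338). Plxna2 and Plxna3, which pair with neuropilins, had log2 fold changes of 0.11 ± 0.33 SE and 0.01 ± 0.27 SE (edgeR FDR = 0.836 and 0.983). The sign of all 3 turned under library totals alone. Plxnb3 had 0, 20 and 6 counts at P10 and 0, 4 and 0 in adults and was under the filter.

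Of the 12 membrane semaphorins of classes 4 to 7, all of them tested, Sema4a rose and Sema4c fell. Sema4a, best known from immune cells and the retina, had 53.2, 58.8 and 57.0 CPM at P10 and 108, 117 and 137 CPM in adults. The P10 libraries were close together and the rise was 2.14-fold (log2 fold change 1.10 ± 0.15 SE, edgeR FDR = 5.22e-05), with a call under each of the 14 alternatives. In the same libraries 7 of 9 beta-cell markers were called higher and 1 of 8 leukocyte markers lower. The part of either in the rise of Sema4a was not tested. Sema4c, a ligand of Plxnb2, fell 1.81-fold, from 35.0, 37.9 and 27.4 to 16.3, 23.8 and 16.0 CPM (log2 fold change -0.86 ± 0.24 SE, edgeR FDR = 0.0148). Leaving out P10 replicate 3, adult replicate 1 or adult replicate 3 ended the Sema4c call (highest edgeR FDR of these 0.0709; 0.000337 to 0.253 over the alternatives).

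The other 10 did not pass and had log2 fold changes from -2.29 for Sema6c to 0.85 for Sema6b. Sema6c had 22, 28 and 22 counts at P10 and 6, 2 and 0 in adults, without overlap (edgeR FDR = 0.0840). Sema7a, the class anchored by a lipid, had 25.4, 19.3 and 13.1 CPM at P10 and 7.61, 16.9 and 8.997 CPM in adults (edgeR FDR = 0.101) and passed without adult replicate 2 (edgeR FDR = 0.0383) and under library totals alone (0.00551), with the other alternatives up to 0.446. Sema6b had 7.59, 8.02 and 7.53 CPM at P10 and 6.22, 18.7 and 16.7 CPM in adults. Adult replicate 1 stood apart, and without it the difference passed (edgeR FDR = 0.0338 against 0.137 with all libraries, and up to 0.673 over the alternatives). Sema4g did not overlap between the ages (22.3 ± 4.03 and 14.4 ± 2.53 CPM; SD, n = 3; edgeR FDR = 0.0980). Sema4b, Sema4d, Sema4f, Sema5a, Sema5b and Sema6d overlapped. With library totals alone Sema4g, Sema6c and Sema6d passed as lower (edgeR FDR = 0.00474, 0.0262 and 0.0377), as did the ephrin Efnb2 (edgeR FDR = 0.0388).

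**Figure D5:**
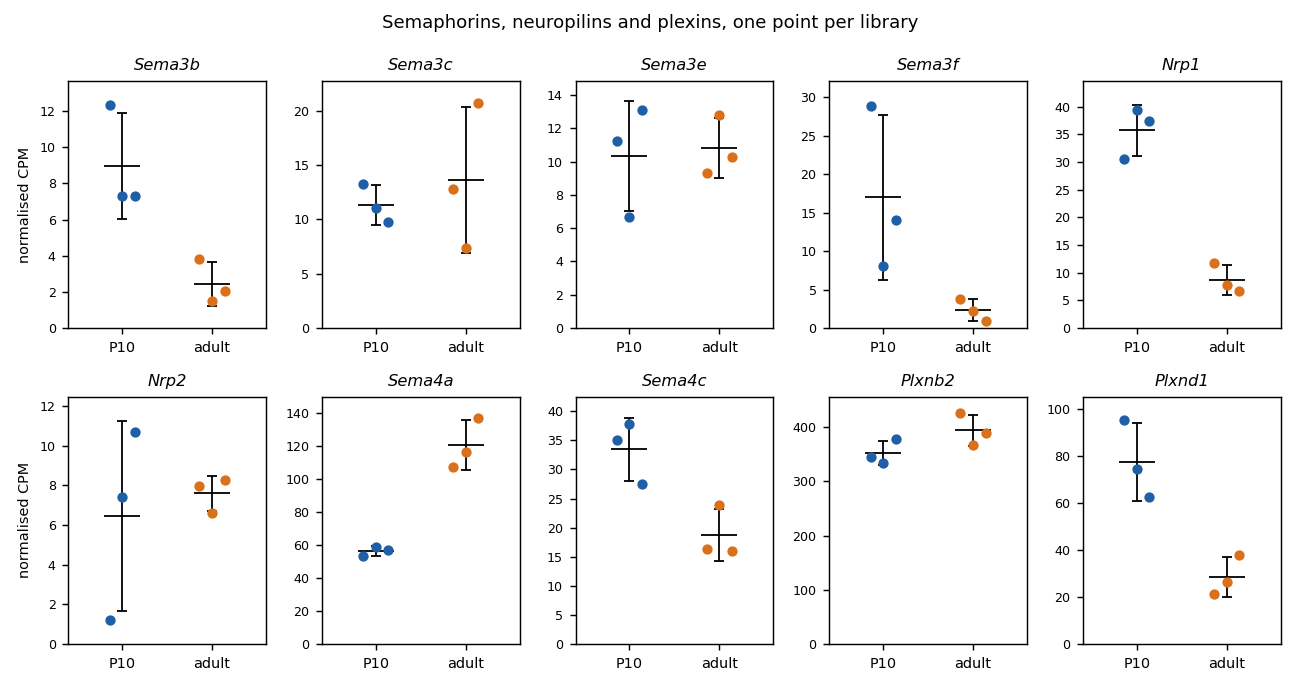
Normalised CPM of 6 semaphorins, 2 neuropilins and 2 plexins, 1 point per library, with black bars for the mean and SD of each age (n = 3). Sema4a lies higher and Sema3b, Sema3f, Sema4c, Nrp1 and Plxnd1 lower in every adult library than in any P10 library.

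No netrin passed the filter and no netrin receptor was called. Ntn1, the founding netrin, had 5, 22 and 3 counts at P10 and 6, 4 and 19 in adults, a ratio of normalised counts of 1.59 higher in adults with a 95% counting interval of 0.922 to 2.74. The ratio was 3.76 (1.68 to 9.53) once P10 replicate 3, which held most of the P10 reads, was left out, and 1.82 (1.03 to 3.20) without adult replicate 2. It was 1.08 (0.471 to 2.27) without adult replicate 3, which held most of the adult reads, and its interval included 1 in the 3 other cases. Ntn4, a netrin of basement membranes, had 0, 0 and 5 counts at P10 and 0, 2 and 19 in adults, so that most of its reads lay in adult replicate 3. Ntn5 and Ntng2 had between 0 and 19 counts per library, Ntng1 had 3 counts and Ntn3 1 count, all in P10 replicate 4. Unc5b, a netrin receptor that endothelial cells also carry, had 5.15, 21.99 and 22.8 CPM at P10 and 6.22, 11.4 and 18.9 CPM in adults, with wide spread at both ages (edgeR FDR = 0.595). Unc5a and Unc5c did not pass either (log2 fold change -0.36 ± 0.39 SE and 0.72 ± 0.37 SE, edgeR FDR = 0.539 and 0.162). Unc5d had 20, 0 and 2 counts at P10 and 1, 0 and 2 in adults, and Dcc was listed at 0 in every library.

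A list of 59 other axon guidance genes, such as co-receptors and the cytoplasmic proteins that carry the signal to the cytoskeleton, had 53 rows, of which 46 were tested. Among them 28.3% were called, near the 26.3% of all genes tested. They comprised 9 higher (Arhgef11, Arhgef12, Crmp1, Dpysl2, Dpysl5, Farp2, Nrcam, Tiam1 and Vav2) and 4 lower (Dock1, Dpysl3, Gap43 and Limk2). The median log2 fold change was -0.03, as over all genes. Tiam1, an exchange factor that activates Rac, rose 4.28-fold from 6.22 ± 0.693 to 26.6 ± 3.75 CPM (SD, n = 3; edgeR FDR = 6.49e-05). Dpysl5, a collapsin response mediator of the family that relays semaphorin signals, rose 1.99-fold from 33.0 ± 7.10 to 66.0 ± 3.60 CPM (SD, n = 3; edgeR FDR = 0.00106). Its relative Dpysl3 fell 10.1-fold, from 18.6 ± 4.00 to 1.87 ± 0.620 CPM (SD, n = 3; edgeR FDR = 3.37e-05). Dock1, another Rac activator, fell 2.10-fold (edgeR FDR = 0.0151), though not past the threshold without adult replicate 1 (edgeR FDR = 0.0710; up to 0.137 over the alternatives). Arhgef11, Arhgef12 and Farp2 rose 1.70-fold, 1.57-fold and 1.94-fold, but none of them passed the test against 1.5-fold (edgeR FDR = 0.257, 0.518 and 0.114). Farp1 and Rnd1, of the same list, were not called (log2 fold change -0.30 ± 0.19 SE and -0.67 ± 0.39 SE). Under library totals alone the list had 1 gene higher, Tiam1, and 17 lower, where all 10124 genes tested had 343 higher and 3612 lower. Without single libraries Dpysl2, Nrcam and Gap43 each kept the call in 1 of 6 fits and Limk2 in 2 of 6. The list had 2 lower without P10 replicate 3, P10 replicate 4 or adult replicate 1.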

How the data were processed

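Poly(A) RNA was made into unstranded single-end libraries per the labels' protocols, and a gene's reads may include those of an overlapping or antisense gene. The submitters' processing notes name the rn5 build and Bowtie2, TopHat2 (2.0.10), HTSeq, DESeq and edgeR. The values deposited by the authors are unnormalised counts of reads per gene symbol, with a file for each library. Its 5 closing counter rows are not genes and were left out. Alignments that were not unique made up 23.4% to 27.7% of all entries at P10 and 15.1% to 17.8% in adults. Ambiguous reads made up 0.391% to 0.474% at P10 and 0.319% to 0.374% in adults. Both shares were thus higher in every P10 library, and their part in the results was not tested. A table of all libraries with 6 sample columns was not used. The labels call the libraries biological replicates, and p-values measure the spread between them.

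All genes passing filterByExpr (minimum count 10, total 15) were tested with edgeR 4.0.16 (R 4.3.3) on TMM-scaled counts, with age as the only term. P-values were adjusted over all tested genes by Benjamini-Hochberg (threshold 0.05). The standard error of a log2 fold change is its size over the root of the F statistic. CPM are TMM-normalised and not per gene length, so levels of different genes are not compared. Folds come from the fit, except as bounds where a group had no count, or as ratios of normalised counts with an exact 95% interval where it had few. Both cover counting error only.

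The members, the gene lists and the rule for named genes (every called member, 18 genes whatever their result, and the 2 smallest p per direction of each list) were chosen with earlier results of these data known. Of the 18, Ephb4 and Plxna1 had no row. The alternatives were relative log expression (RLE) factors, library totals, TMM factors from genes other than those of hormones and acinar enzymes, DESeq2 (1.42.0), both a looser and a stricter filter (5 CPM in 3 libraries), a block for the replicate number, a test against 1.5-fold, and each library left out. On simulated counts for adult against P10, with 9977 genes tested, edgeR called 39.4% of the 99 genes that truly differed 2-fold, 100% of the 99 that differed 4-fold, and 6 of 9779 that did not differ. The simulation gave every gene the same variability between libraries, so these shares need not hold for real genes that vary more.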

Additional observations from a re-analysis of the deposited data

How the results depend on the processing

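Of the 17 members called, 9 kept their call under every alternative in which they were tested, and none changed direction. Over 235 such fits 210 kept the call. RLE factors, TMM without hormone and acinar genes, DESeq2 and no filter each gave 4 members higher and 13 lower, the same genes, and the stricter filter 3 and 12. Library totals alone gave 3 higher and 19 lower, where all 10124 genes tested gave 343 higher and 3612 lower. Without single libraries 4 to 5 were higher and 10 to 12 lower. The other axon guidance genes were 1 higher and 17 lower with library totals alone and 1 and 1 in the test against 1.5-fold, and 7 to 8 higher and 2 to 5 lower without single libraries.

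With the replicate number as a block, 2 members were higher, 9 lower, and 5 other axon guidance genes higher. Over all genes 679 were higher and 729 lower with the block against 1265 and 1394 without it, and 337 and 624 passed the test against 1.5-fold. Numbers 1 and 3 occur at both ages, and same-numbered libraries had correlations of deviations of -0.02 and -0.005 across genes. Such values over all genes cannot exclude a shared preparation that acts on some genes, so the fit with the block is given as well. P10 replicate 4 and adult replicate 2 have no partner of their number. The fit with the block therefore takes the age difference from numbers 1 and 3 alone and has few libraries to measure the spread. Calls can be lost through this smaller comparison alone, and the cause of their loss was not tested. With the block the calls of Epha5 (edgeR FDR = 0.0516), Robo2 (0.105), Epha3 (0.0729), Efnb1 (0.169), Sema3b (0.155), Slit2 (0.188) and Slit3 (0.129) were lost, and Sema7a passed (0.0465).

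Signs of members that were not called turned in places. With library totals alone the log2 fold change was -0.23 for Nrp2, -0.37 for Plxna2, -0.50 for Plxna3, -0.33 for Plxnb2, -0.18 for Sema3c, -0.42 for Sema3e, -0.43 for Sema4d, -0.26 for Sema5a, -0.12 for Sema5b and -0.32 for Slit1. With the block it was -0.025 for Plxna2 and 0.062 for Sema3g, and with the stricter filter -0.010 for Plxna3. Without single libraries it ran from -1.08 to 0.028 for Epha1, -0.22 to 0.83 for Nrp2, -0.094 to 0.38 for Plxna2, -0.23 to 0.24 for Plxna3, -0.17 to 0.58 for Sema3c, -0.16 to 0.27 for Sema3e, -0.64 to 0.061 for Sema3g, -0.25 to 0.35 for Sema4b, -0.16 to 0.27 for Sema4d, -0.14 to 0.61 for Sema5a, -0.20 to 0.76 for Sema5b, -0.26 to 1.07 for Slit1 and -0.62 to 0.018 for Unc5a. The cause of these changes was not tested. Depth limits the members under the filter, where a few counts decide the ratio.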
